A study of Mus musculus with 24 samples.

Results

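The levels of 10 genes best known from liver and lipid handling were followed across 24 mouse mammary tumors, where Sec14l4 spanned 8.21 and Cyp3a25 7.59 log2 units and each of the other 8 genes 4.12 or less. The genes were the paraoxonases Pon1, Pon2 and Pon3, the receptor Fgfr4, the cytochromes Cyp3a25 and Cyp3a13, the lipid carriers Sec14l2 and Sec14l4, and the nuclear receptors Nr1h4 and Nr0b2. They were taken by gene name from the array annotation, which gave 14 probes of the 39429 gene probes on the array. All 10 genes had at least 1 probe over the signal limit, among 20957 genes tested. The list was drawn up with early against late differences of these same tumors already known, so those differences are given here as a description, with no test.

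The tumors were mammary tumors of female BALB/c mice, and every mouse had received the carcinogen 7,12-dimethylbenz[a]anthracene (DMBA). Mice ate a low-fat diet (LFD), a high-fat diet of saturated animal fat (HFD), or were switched after puberty from low to high fat (LFD-HFD) or from high to low fat (HFD-LFD). Tumors were labelled by early or late onset, which left 3 HFD early, 3 HFD-LFD early, 6 HFD late, 3 HFD-LFD late, 4 LFD-HFD late and 5 LFD late tumors, 1 array for each. Early tumors came only from the HFD and HFD-LFD groups, both fed high fat in puberty. Nothing in the labels tied tumors to separate litters or days, and p-values measure the spread between these tumors.

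Each array set tumor RNA against a common reference pooled from 11 mouse cell lines, and a level below is the log2 ratio of tumor to reference. A level of 0 is therefore the reference's own level, and levels of different probes cannot be ranked against each other. The labels put tumor RNA in cyanine 5, while the study's methods put the reference there. The direction here follows the labels. Signals in cyanine 5 varied more between arrays (median SD 0.43 against 0.21 log2 units in cyanine 3, over 27304 probes), and the Y chromosome genes Ddx3y and Eif2s3y read between -5.05 and -2.31 in these female tumors. On each array 66.1 to 89.2% of gene probes had tumor signal well above background, and 7 arrays had rows with dimmed cyanine 5 whose values were left missing.

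Nr1h4 encodes FXR, the nuclear receptor for bile acids, which in liver and gut switches on Nr0b2 (SHP), a receptor without a DNA-binding domain that represses other genes. FXR also raises an intestinal FGF hormone that reaches the liver and acts there through Fgfr4 and its partner Klb to hold bile acid synthesis down. Paraoxonases are lactone-cleaving enzymes, of which Pon1 travels on high-density lipoprotein and Pon2 stays in the cell. Cyp3a enzymes oxidize steroids, bile acids and drugs, and Sec14-like proteins carry lipids, Sec14l2 being also known as a tocopherol-associated protein.

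Promoter sequence is shown for the 3 members that show the most of the group, Cyp3a25 for its wide range and Nr1h4 and Nr0b2 for the receptor pair. Each is the 250 bases before the RefSeq start (GRCm38.p6), 5′ to 3′ in the sense of the gene. Capitals mark matches on either strand to the nuclear receptor half-site AGGTCA, inverted or direct repeats of it with 1 base between, the half-site GTTAAT of the liver factor HNF1, the core promoter element known as the TATA box (letters TATAAA), the GC box read by Sp1 (letters GGGCGG), and the box read by the factor NF-Y (letters CCAAT).
Cyp3a25 (chr5:146009618-146009867, minus strand): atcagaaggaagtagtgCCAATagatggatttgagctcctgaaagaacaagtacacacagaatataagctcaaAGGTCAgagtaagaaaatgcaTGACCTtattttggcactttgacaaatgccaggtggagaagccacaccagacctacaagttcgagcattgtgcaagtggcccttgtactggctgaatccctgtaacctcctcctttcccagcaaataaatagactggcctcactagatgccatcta
Nr1h4 (chr10:89506659-89506908, minus strand): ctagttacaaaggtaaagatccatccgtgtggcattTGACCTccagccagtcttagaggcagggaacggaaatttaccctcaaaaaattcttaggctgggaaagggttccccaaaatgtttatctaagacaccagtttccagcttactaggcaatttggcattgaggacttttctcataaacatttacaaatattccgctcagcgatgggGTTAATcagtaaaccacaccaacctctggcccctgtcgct
Nr0b2 (chr4:133553126-133553375, plus strand): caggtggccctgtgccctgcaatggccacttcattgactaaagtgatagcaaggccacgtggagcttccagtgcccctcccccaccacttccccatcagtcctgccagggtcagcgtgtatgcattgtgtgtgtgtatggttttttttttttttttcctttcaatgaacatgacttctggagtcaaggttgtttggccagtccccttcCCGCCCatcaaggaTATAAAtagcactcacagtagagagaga

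The half-site AGGTCA lay in the window of 2 of the 9 members with a promoter entry, Cyp3a25 with 2 matches and Nr1h4 with 1, and in 4607 of 32841 windows of the same length. Neither repeat was found in a member's window, and both were rare among all windows (2 windows held the inverted and 11 the direct repeat). GGGCGG lay in 5 members' windows, against 32.7% of all, and CCAAT in 4, against 33.9%. Among members TATAAA was found only before Nr0b2, 23 bases from the start (12.4% of all windows), and GTTAAT only before Nr1h4, 35 bases from it (6.43%). These matches describe letters in a window and show no binding.

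On mm9, the build of the array files, the paraoxonase probes lay together on chromosome 6, that of Pon1 at chr6:5118166-5118225, Pon3 at chr6:5171553-5171612 and Pon2 at chr6:5219051-5219110, all on the minus strand. The Sec14-like probes were neighbors on chromosome 11, Sec14l4 at chr11:3947935-3947994 (plus strand) and Sec14l2 at chr11:3997274-3997333 (minus strand). The Cyp3a probes lay apart on chromosome 5, Cyp3a13 at chr5:138335412-138335471 and Cyp3a25 at chr5:146788879-146788938 (both minus strand). Fgfr4 was read at chr13:55270033-55270092 (plus strand), Nr1h4 at chr10:88917222-88917281 (minus strand) and Nr0b2 at chr4:133109694-133109753 (plus strand). The files do not say which exon or UTR a probe reads.

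**Figure D1:**
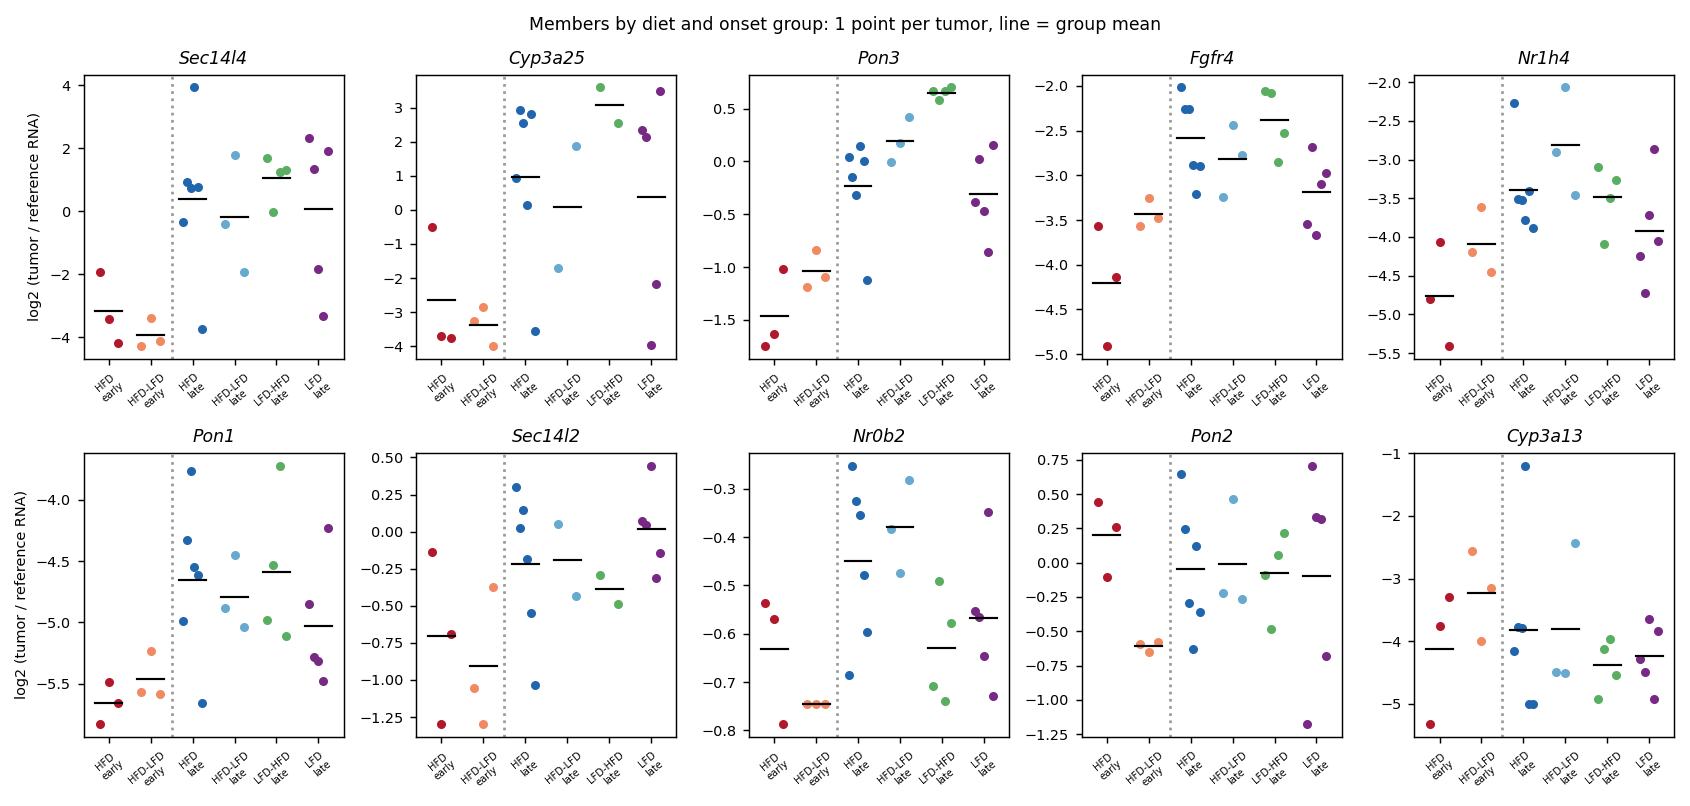
Level of each member in every tumor, as log2 of tumor over reference RNA (vertical axis), by diet and onset group (horizontal axis), with 1 point for each tumor and a line at the group mean. The dotted line parts the 6 early tumors from the 18 late ones; the vertical scale differs between panels.

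Sec14l4 was high in most late tumors and low in every early one. Its level ran from -4.28 through a median of -3.78 to -1.94 in the 6 early tumors. In the 18 late tumors it ran from -3.74 through 0.85 to 3.93. The groups overlapped by 2 late tumors, HFD late replicate 6 at -3.74 and LFD late replicate 4 at -3.33, which lay below the highest early tumor. The mean difference of early minus late was -3.91 (SE 0.81), a level 15.0-fold higher in late tumors.

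Cyp3a25, a steroid- and drug-oxidizing cytochrome of mouse liver, had the same shape. Early tumors ran from -3.99 through -3.47 to -0.50, and the 15 late tumors with a usable spot from -3.96 through 2.14 to 3.60. In 11 of those 15 the level was above every early tumor, and 4 lay within the early range. The mean difference was -3.94 (SE 1.04), or 15.4-fold. On 3 late arrays the spot lay in dimmed rows and had no value.

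Both genes were also more spread among late tumors than among early ones. The SD of Sec14l4 was 2.00 (n = 18) in late and 0.88 (n = 6) in early tumors, and that of Cyp3a25 was 2.57 (n = 15) and 1.30 (n = 6). The early tumor HFD early replicate 1 had the highest early level of each, at -1.94 for Sec14l4 and -0.50 for Cyp3a25. It was also the early tumor with the highest score for luminal markers, described further on.

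Of the paraoxonases, Pon3 differed most. Its level in early tumors ran from -1.74 through -1.14 to -0.84 and in late tumors from -1.12 through 0.03 to 0.70. Only 2 of the 18 late tumors lay below the highest early tumor. The mean difference was -1.27 (SE 0.22), a level 2.41-fold higher in late tumors. Pon3 was most even in LFD-HFD late tumors, whose 4 values lay between 0.58 and 0.70, above every tumor of the other groups.

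Pon1 lay far below the reference everywhere. It ran from -5.83 through -5.58 to -5.23 in early tumors and from -5.66 through -4.87 to -3.72 in late ones. The mean difference was -0.79 (SE 0.22, mean of 10 spots of the probe on each array), with the probe well above background in 5 of 6 early and 17 of 18 late tumors. Early tumors had an SD of 0.20 against 0.54 in late tumors. Whether low tumor signal narrowed the early spread was not tested. The Pon1 difference was -0.23 with the tumor channel alone and -1.49 with normexp fitted on all spots.

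Pon2, the intracellular paraoxonase, overlapped almost fully between onsets. Early tumors ran from -0.65 through -0.34 to 0.44 and late tumors from -1.18 through -0.02 to 0.71, a mean difference of -0.14 (SE 0.22). A second probe of Pon2 gave -0.29. The third, which failed the signal limit and was well above background in no early and 5 late tumors, gave -0.19. Over 24 arrays the first 2 correlated at r = -0.29, so they did not rank the tumors alike.

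Fgfr4, the liver-type receptor of the FGF family, ran from -4.91 through -3.57 to -3.25 in early tumors. It ran from -3.67 through -2.81 to -2.02 in late tumors, 16 of which were above every early tumor. The mean difference was -1.07 (SE 0.24). A second Fgfr4 probe, 821 bases upstream on the chromosome, gave the smaller difference of -0.36, with all 6 early tumors below the late median and r = 0.52 between the probes over 24 arrays. The second probe is shown because it reads another stretch of the same transcript, at chr13:55269212-55269271 on the plus strand of mm9.
Fgfr4 probe A_55_P2121871: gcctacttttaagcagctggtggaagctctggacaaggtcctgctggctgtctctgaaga

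Nr1h4, the bile acid receptor, was between -5.41 and -3.61 in early tumors with a median of -4.32. Late tumors ran from -4.72 through -3.50 to -2.07, and 11 of 18 lay above every early tumor. The mean difference was -0.96 (SE 0.30). Its partner Nr0b2 moved little, from -0.79 through -0.75 to -0.54 in early tumors and from -0.74 through -0.52 to -0.25 in late ones, a difference of -0.18 (SE 0.08). Nr0b2 was dim, with the probe well above background in 4 of 6 early and 13 of 18 late tumors.

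Sec14l2, related to Sec14l4 and lying near it on chromosome 11, differed by -0.65 (SE 0.19). Early tumors ran from -1.30 through -0.87 to -0.14 and the 15 usable late tumors from -1.04 through -0.15 to 0.44. The ranges overlapped broadly, with 8 of the 15 late tumors below the highest early one. Over all tumors Sec14l2 spanned 1.74 log2 units.

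Cyp3a13, another cytochrome of the Cyp3a family, had no settled direction. The probe used for it gave early tumors from -5.32 through -3.52 to -2.56 and late tumors from -5.01 through -4.21 to -1.20, a difference of 0.38 (SE 0.42). A second probe 1147 bases away gave -0.23, and the 2 probes were uncorrelated over 24 arrays (r = 0.0023). The first probe was well above background in 20 of 24 tumors and the second in all 24.

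**Figure D2:**
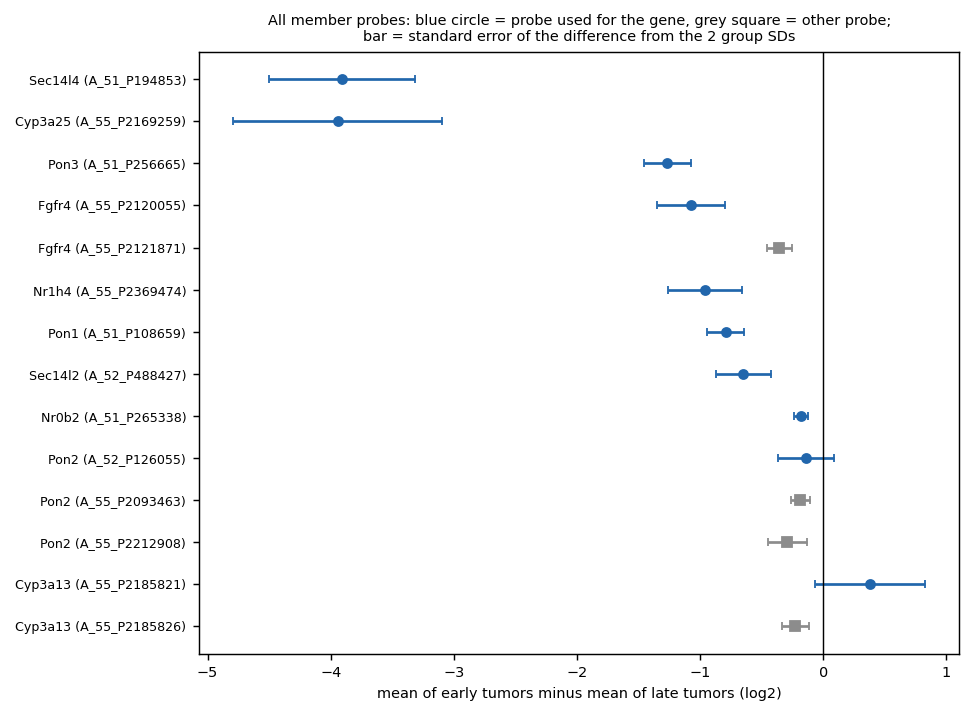
Mean of early tumors minus mean of late tumors (log2, horizontal axis) for each of the 14 member probes, with blue circles for the probe used for a gene and grey squares for the others; bars are the SE of the difference from the SDs of both groups. Sec14l4 and Cyp3a25 lie near -3.9, and the probes of Cyp3a13 fall on opposite sides of 0.

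Of the 10 members 9 had a lower mean in early tumors (56.9% of all genes), and in 7 every early tumor lay below the late median (20.8% of all genes). In none did all early tumors lie below all late ones (0.496% of all genes). With the adjusted limit of 0.05 in limma, 7 of the 10 members were lower in early tumors, against 11.2% of all genes tested; since the members were chosen on this contrast, nothing is read from these counts. The members outside it were Pon2, Cyp3a13 and Nr0b2. Over all genes 2355 were lower and 1498 higher in early tumors, and the median difference was -0.06, while that of the members was -0.88. That count of members was 4 with median centring, with the scanner's own log ratio, with the tumor channel alone and with slide as a random block. Median centring moved the median of all genes to 0.21 and the split of called genes to 4356 higher and 969 lower.

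The 3 early HFD tumors shared a slide with no late tumor in scan session 1, and the 3 early HFD-LFD tumors shared one with 1 late tumor in session 2. Within session 1 the differences were -4.31 for Sec14l4, -3.97 for Cyp3a25, -1.35 for Pon3, -1.42 for Fgfr4, -1.03 for Nr1h4, -0.99 for Pon1 and -0.79 for Sec14l2. Within session 2, in the same order, the differences were -4.81, -4.27, -1.31, -0.59, -1.26, -1.11 and -0.62. These are parts of the contrast that chose the members and were not tested. Cyp3a13 was -0.48 in session 1 and 1.08 in session 2, and Pon2 was 0.31 and -0.70.

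Within HFD mice 3 members were under the limit and lower in early tumors (7.70% of all genes), and within HFD-LFD mice 1 (0.377% of all genes); the same tumors chose the members, and nothing is read from these counts. In HFD mice the difference of Fgfr4 was -1.62 (SE 0.30) and in HFD-LFD mice -0.61 (SE 0.35). For Pon3 both diets gave -1.23 (SE 0.24 and 0.28). The test of the difference between diets, which the choice of members did not use, gave no member an adjusted p under 0.05 (0% of all genes). Fgfr4 had an unadjusted p of 0.0396 and an adjusted p of 0.583 by limma for a difference of -1.01, where 8.26% of all genes had an unadjusted p under 0.05. Diet and scan session of early tumors cannot be told apart in this test. The Fgfr4 value depended on the setting: it was -0.65 without HFD early replicate 2, -0.64 with the mean of both probes, -0.54 with normexp fitted on all spots, and -1.62 with array weights (adjusted p = 0.036 by limma).

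**Figure D3:**
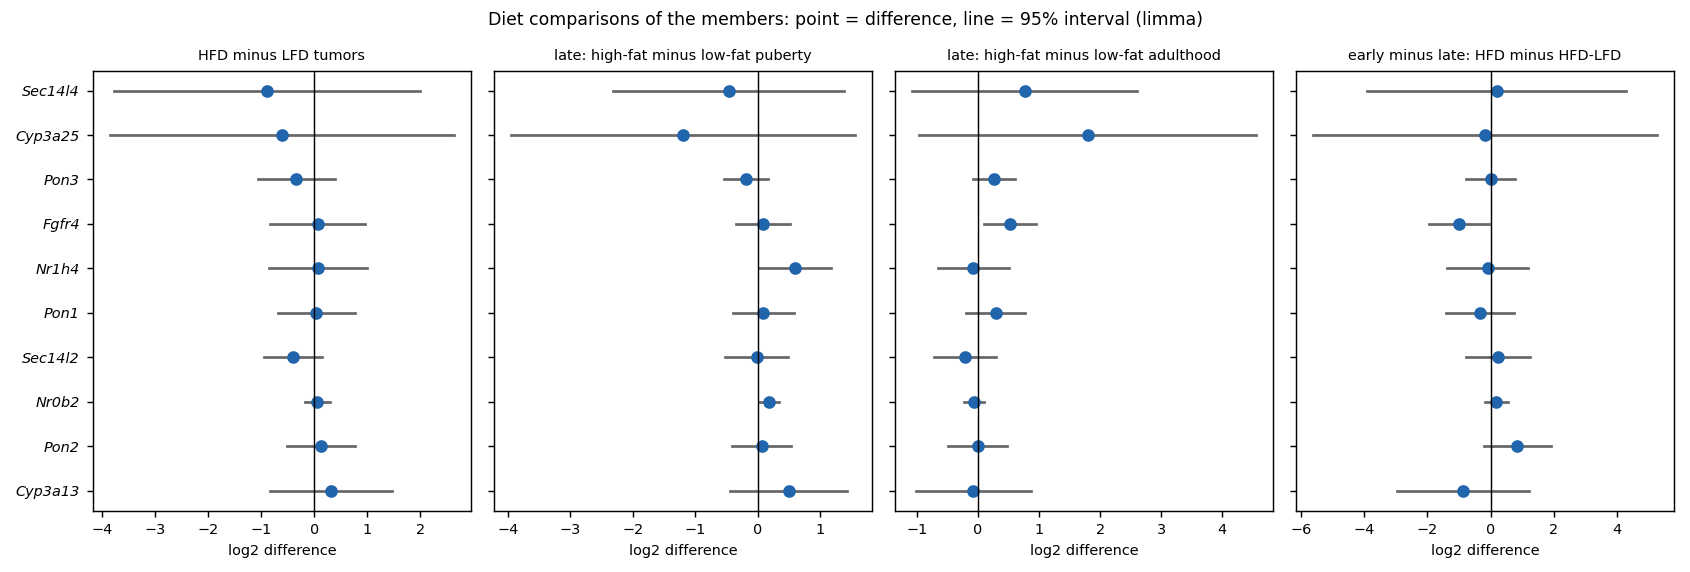
Differences of the members (log2, horizontal axes) by diet, with lines for 95% intervals from limma. The panels show HFD minus LFD tumors, late tumors by diet in puberty, late tumors by diet in adulthood, and the early minus late difference in HFD minus that in HFD-LFD mice; the intervals of Sec14l4 and Cyp3a25 are the widest in each panel.

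Whether diet itself moved the members was asked in late tumors and in HFD against LFD tumors. No member, and no gene of the array, had an adjusted p under 0.05 in these comparisons (0% of 20957 genes each, with limma). Without adjustment 1071 genes reached p under 0.05 for HFD against LFD, 1995 for the diet of puberty and 1305 for the diet of adulthood. The comparisons share tumors. Late diet groups were unevenly spread over slides and scan sessions. No LFD-HFD or HFD-LFD late tumor was in session 1, which held most HFD and LFD late tumors. Diet could not be fully told apart from slide and session here.

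The 9 HFD tumors included the 3 early ones, while all 5 LFD tumors were late, so onset enters this comparison. No member had an unadjusted p under 0.05, against 5.11% of all genes. The difference of Pon3 was -0.34 with a 95% interval from -1.06 to 0.39. That of Sec14l4 was -0.89, from -3.77 to 2.00, an interval that holds shifts of several log2 units in either direction. With the 6 late HFD tumors alone both differences changed sign, to 0.08 (SE 0.25) for Pon3 and 0.30 (SE 1.34) for Sec14l4, and 1 member instead of 4 was lower in HFD tumors. Fgfr4 was then 0.61 higher (SE 0.25, unadjusted p = 0.0357, adjusted p = 0.909 by limma).

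Late tumors were then split by the diet of puberty, high fat (HFD and HFD-LFD) against low fat (LFD and LFD-HFD). Nr1h4 was 0.60 higher after high fat (95% interval 0.03 to 1.18, unadjusted p = 0.0415, adjusted p = 0.514 by limma). Its group values were, for HFD-LFD late tumors, -3.46, -2.90 and -2.07, while LFD late tumors ran from -4.72 to -2.86. The other pair of groups in the contrast lay close together, HFD late tumors with a mean of -3.39 ± 0.58 (SD, n = 6) and LFD-HFD late tumors with -3.49 ± 0.44 (SD, n = 4). The Nr1h4 difference was 0.42 to 0.77 leaving out each array, lowest without HFD-LFD late replicate 2. With normexp fitted on all spots it was 0.94. Without the arrays that have dimmed rows it was 0.96, with LFD-HFD late replicate 3 alone in its group. Nr0b2 was 0.18 higher (95% interval 0.02 to 0.34, unadjusted p = 0.0255, adjusted p = 0.483 by limma). The Nr0b2 difference was 0.54 with the scanner's log ratio and 0.39 with the tumor channel alone. These 2 of 10 members stand beside 9.52% of all genes at that unadjusted limit.

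By the diet of adulthood, 1 member, Fgfr4, had an unadjusted p under 0.05, against 6.23% of all genes. It was 0.52 higher in late tumors of mice eating high fat as adults (95% interval 0.09 to 0.95, unadjusted p = 0.0195, adjusted p = 0.784 by limma). The 4 LFD-HFD late tumors had a mean of -2.38 ± 0.38 (SD) and the 5 LFD late tumors -3.19 ± 0.41 (SD), with 1 LFD tumor above the lowest LFD-HFD tumor. The other pair was closer, HFD late tumors at -2.59 ± 0.47 (SD, n = 6) and HFD-LFD late tumors at -2.82 ± 0.40 (SD, n = 3). The second Fgfr4 probe gave -1.52 for LFD-HFD and -1.47 for LFD late tumors, and -1.34 for HFD and -1.79 for HFD-LFD late tumors, so the probes placed the gap in different pairs. The difference was 0.22 with normexp fitted on all spots. For Cyp3a25 the difference was 1.80 with an interval from -0.96 to 4.55, resting on 2 LFD-HFD and 2 HFD-LFD late tumors with a usable spot.

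Whether the members rose and fell together was asked among the late tumors alone, which leaves out the early tumors of the contrast that chose them. HFD late replicate 6 lay within the early range of both Sec14l4 (-3.74) and Cyp3a25 (-3.56). So did LFD late replicate 4, at -3.33 for Sec14l4 and -2.18 for Cyp3a25. The pairs may therefore not be independent of that choice. By Pearson's r the highest of the 45 pairs was Cyp3a25 with Sec14l4, with Pearson's r = 0.75 and Spearman's rho = 0.55 (n = 15). The permutation p values were 0.0019 and 0.0377, and 0.0837 and 0.254 after adjustment over the pairs. Without the 2 tumors farthest from the median of Cyp3a25 r was 0.57, within session 1 it was 0.52 (n = 8), and without the arrays that have dimmed rows 0.58 (n = 11).

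Pon3 with Cyp3a25 followed at r = 0.69 and rho = 0.55 (n = 15, adjusted permutation p = 0.1 and 0.254). Without the 2 farthest tumors it was 0.44, and within session 1 it was 0.39. Pon1 with Cyp3a25 had r = 0.67 and rho = 0.64 (n = 15, adjusted permutation p = 0.1 and 0.254), 0.70 without the 2 farthest tumors and 0.59 within session 1. By rho that pair was the highest, followed by Cyp3a13 with Sec14l2 (rho = 0.60, r = 0.32, n = 15, adjusted permutation p = 0.254 and 0.74). No pair passed the adjusted limit by either measure, and 5 pairs had an unadjusted p of r under 0.05. The share of all gene pairs that ran as closely was not computed, so the pairs are not read as particular to the members. Nr1h4 and Nr0b2, receptor and target in liver, had r = 0.08 and rho = 0.12 (n = 18, adjusted permutation p = 0.974 and 0.981).

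**Figure D4:**
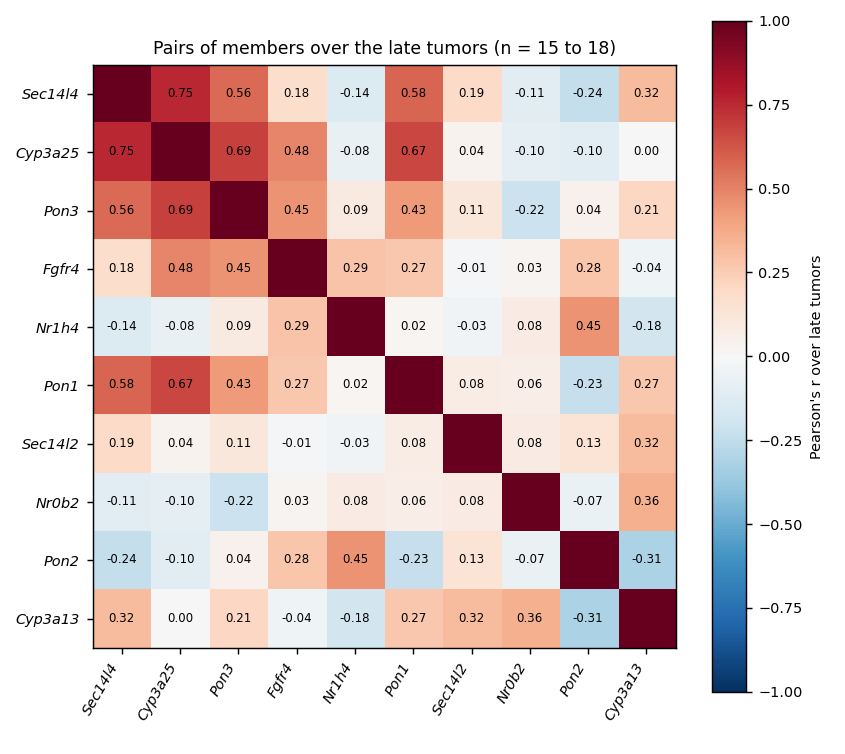
Pearson's r between the levels of each pair of members over the late tumors, from -1 (blue) to 1 (red), with 15 to 18 tumors for a pair. The warmest block joins Sec14l4, Cyp3a25, Pon3 and Pon1, from 0.43 to 0.75, and Nr1h4, Nr0b2 and Pon2 have values of either sign with the block. With the same block Fgfr4 lies between 0.18 and 0.48 and Cyp3a13 between 0.0019 and 0.32.

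Markers of cell types moved with onset as well, and their part in the members' differences was not tested. In bulk tumors fewer cells of a type and less RNA for each cell cannot be told apart. Over all genes 18.4% passed the limit in either direction. A score was the mean centred log2 level of a marker list in a tumor. Of 11 luminal markers tested 7 were lower in early tumors, and the score ran from -2.19 to 0.39 in early and from -3.28 to 1.82 in late tumors. Of 9 proliferation markers 6 were higher in early tumors, with scores from 0.31 to 1.15 against -1.18 to 1.13. The squamous list had no called gene of 14, with median scores of 1.52 in early and -1.38 in late tumors and a highest late score of 4.67.

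Hepatocyte markers lay well below the reference in both groups. Of 11 tested 3 were lower in early tumors, Cps1, Apob and Apoh, and none was higher. Albumin (Alb) had a mean level of -4.13 in early and -3.77 in late tumors, against a reference pooled from cell lines. The list's score ran from -0.96 to 0.13 in early and from -0.54 to 0.71 in late tumors.

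The remaining lists had few called genes. Basal markers had 1 of 8 lower, with scores from -0.81 to 0.23 in early and from -1.52 to 1.24 in late tumors. By early minus late mean, Krt5, Krt14, Krt17 and Trp63 were at 0.45 to 1.19. Acta2, Myh11, Mylk and Oxtr were at -2.88 to -0.61, so the basal score mixes both directions. Macrophage markers had 1 of 6 higher, with scores from -0.20 to 0.65 and from -0.61 to 0.59. Adipocyte markers (7 tested) and skeletal muscle markers (8 tested) had none, although single tumors reached adipocyte scores of 3.51 and muscle scores of 2.57.

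Late tumors fell into 13 with a luminal score of 0.42 or more and 5 with a score of -0.75 or less, and Cyp3a25 followed that score. Over the 15 late tumors with a value r was 0.74 and rho 0.78 (adjusted permutation p = 0.0395 and 0.0318 over 40 relations). Without the 2 farthest tumors r was 0.92, and without the arrays that have dimmed rows 0.60 (n = 11). Among the 11 tumors above 0 alone, a cut chosen after seeing the data, it was 0.81. Within session 1 it was 0.62 (n = 8). With the squamous score Cyp3a25 had r = -0.61 and rho = -0.70 (adjusted permutation p = 0.102 and 0.0466). In the 11 with a luminal score above 0 Cyp3a25 lay between -1.72 and 3.60. It lay between -3.96 and 0.13 in the 4 below 0 that had a value. The share of all genes that ran as closely with a marker score was not computed, here or for the members below. The relations are therefore not read as particular to the members. Luminal and proliferation markers moved with onset too, and late tumors were part of the contrast that chose the members. The relations and their p values may therefore not be independent of that choice.

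The relation of Sec14l4 with the luminal score depended on which tumors were included. Its r with the luminal score was 0.37 and its rho 0.57 over 18 late tumors (adjusted permutation p = 0.329 and 0.0981), and r was -0.23 within session 1 (n = 8) and 0.98 within session 3 (n = 7). HFD late replicate 4, with the lowest luminal and the highest squamous score of all tumors, also had the highest Sec14l4, 3.93. Without the 2 tumors farthest from the median score, that tumor and HFD late replicate 6, r was 0.95. Neither was left out alone. Among the 13 tumors above 0, the cut chosen after seeing the data, it was 0.81. With the basal score Sec14l4 had r = 0.43 and rho = 0.63 (n = 18, adjusted permutation p = 0.249 and 0.0466).

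Pon3 ran opposite to the proliferation score the most by both measures, and it alone passed the adjusted limit by both. Its r was -0.74 and its rho -0.71 over 18 late tumors (adjusted permutation p = 0.0172 and 0.0318), and -0.73 without the 2 farthest tumors. Without the arrays that have dimmed rows r was -0.43 (n = 11). Within session 1 r was -0.43 (n = 8) and within session 3 it was -0.94 (n = 7). Among the 13 late tumors with a luminal score above 0 it was -0.49, with an adjusted permutation p of 0.462. Fgfr4 had r = -0.51 and rho = -0.64 with that score (n = 18, adjusted permutation p = 0.157 and 0.0466). For Cyp3a25 r was -0.67 and rho -0.54 (n = 15, adjusted permutation p = 0.0594 and 0.162). Sec14l4 had r = -0.59 and rho = -0.51 (n = 18, adjusted permutation p = 0.0848 and 0.143). Without the arrays that have dimmed rows r was -0.46 for Fgfr4, -0.49 for Cyp3a25 and -0.16 for Sec14l4 (n = 11 each). Within session 1, in the same order, it was -0.46, -0.38 and -0.06 (n = 8 each). Within session 3 it was -0.75 for Fgfr4 and -0.85 for Sec14l4 (n = 7 each).

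Cyp3a13 followed the squamous score only through single tumors. Its r was 0.75 and its rho 0.29 (n = 18, adjusted permutation p = 0.0395 and 0.458). Without the 2 farthest tumors r was 0.0021, so the relation rested on HFD late replicate 4 at -1.20 and HFD-LFD late replicate 3 at -2.44. These were the 2 late tumors with Cyp3a13 above every early tumor.

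**Figure D5:**
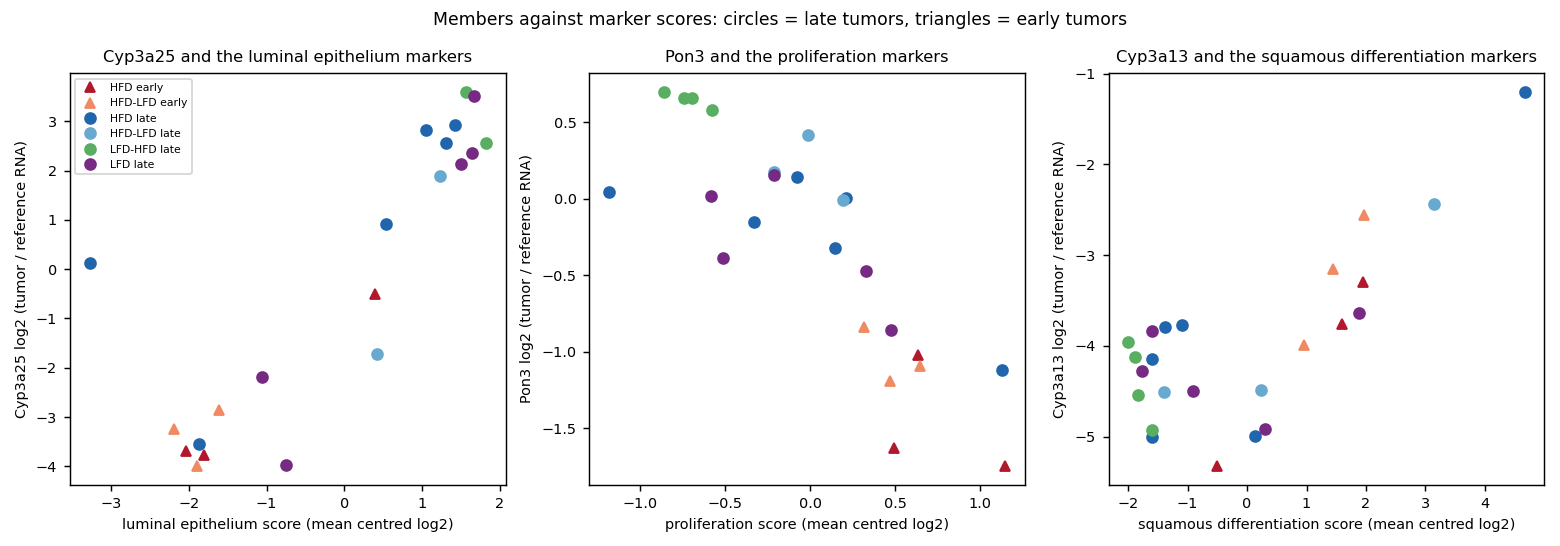
Level of Cyp3a25, Pon3 and Cyp3a13 (log2 of tumor over reference RNA, vertical axes) against the luminal, proliferation and squamous scores (mean centred log2 level of the list, horizontal axes), with circles for late and triangles for early tumors. Cyp3a25 rises with the luminal score, Pon3 falls with the proliferation score, and the Cyp3a13 relation rests on 2 tumors at the right.

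The genes around the members are given as counts from lists, beside the 11.2% of all genes that were lower in early tumors. These lists were drawn up around members chosen on this same contrast, so nothing is read from the counts. Of 22 tested genes of the FXR and bile acid axis 9 were lower and none higher in early tumors, with a median difference of -0.38 beside -0.06 for all genes. Lower were the receptor partners Rxra (-0.44) and Rxrg (-0.40), the FGF co-receptor Klb (-0.91, SE 0.28) and the export pumps Abcb11 (-0.69), Abcb4 (-0.58), Abcc2 (-0.46) and Abcc3 (-1.38, SE 0.39). The bile acid exporter subunit Slc51a (-0.83) and the bile acid-activating enzyme Slc27a5 (-0.68) were lower too. Cyp7a1, the rate-limiting enzyme of bile acid synthesis, was well above background in 0 tumors, Cyp8b1 in 2, Baat in 4 and Slc10a2 in 6, and none of them was tested.

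Close relatives of Cyp3a25 were lower in early tumors too. Of 8 tested genes of the Cyp3a list 6 were lower in early tumors, with a median of -0.67. Cyp3a57 was at -3.55 (SE 0.90) and Cyp3a59 at -2.75 (SE 0.86), much like Cyp3a25. These 3 genes are close copies, and array probes of such copies may share signal, so their values are uncertain as separate measurements. The receptors Nr1i2 (-0.36) and Nr1i3 (-0.63), the reductase Por (-0.72) and cytochrome b5 (Cyb5a, -1.05) were lower, while Cyp3a11 was at 0.67 (SE 0.48) and Cyp3a16 at 0.96 (SE 0.51), neither past the limit.

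Of 7 Sec14-like and vitamin E binding genes tested, Ttpa, the tocopherol transfer protein, was lower (-1.03, SE 0.26), as was Clvs1 (-0.89), and Sec14l5 was higher (0.22). The list's median was -0.17. Of 12 high-density lipoprotein genes 2 were lower, the chaperone Clu (-1.53, SE 0.36) and the cholesterol-esterifying enzyme Lcat (-0.49), with a median of -0.45; 2 of 12 is near the share over all genes. Of 5 tested genes of the FGF receptor family and endocrine FGFs none passed the limit, with Fgf23 at -0.64 (SE 0.37) and Fgfr3 at -0.47 (SE 0.33). No gene of these lists passed the adjusted limit in a diet comparison.

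The genes most alike to each member over the late tumors, by Pearson's r over at least 10 tumors and as a description only, were Scnn1a (0.91), Tuba8 (0.90) and Gstm2 (0.89) for Sec14l4. For Cyp3a25 they were Cyp3a57 (0.99), Cyp3a59 (0.96) and Gipc2 (0.94). Pon1 ran with Ppp1r1a (0.89), Sctr (0.88) and Aldh1a7 (0.86), and Pon3 with A_55_P2181444 (0.92), 4933427D14Rik (0.91) and Yipf1 (0.91). Pon2 ran with Gm2444 (0.94), Ykt6 (0.94) and Slc25a20 (0.92). Fgfr4 ran with Efr3b (0.81), Acan (0.79) and Heyl (0.79).

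Cyp3a13 ran with Clstn2 (0.96) and Tdh (0.96), and Sec14l2 with Ccn3 (0.92), Shmt1 (0.92) and Pros1 (0.89). Nr1h4 had Fam98c (0.81), Ncoa7 (0.81) and Dnah8 (0.80), and Nr0b2 had Mark1 (0.84), Catsperz (0.80) and 1700123M08Rik (0.80). Each of these rests on 11 to 18 tumors that share 1 reference and 1 platform.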

How the data were processed

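RNA from 24 tumors and a reference was measured on 2-color Agilent arrays (7 slides, 3 scan sessions). The deposited files hold the scanner's spot intensity in both channels and its log10 ratio of cyanine 5 over cyanine 3, already processed by the authors' software; Agilent Feature Extraction 11.0.1.1 is named per the file headers and 8.5.1.1 in the submitters' notes. Here mean signals were background corrected by normexp (offset 50) and lowess normalized within arrays (span 0.3) with limma 3.58.1 in R 4.3.3. Outlier spots, spots with a local background over 2 times the array median, and rows with dimmed cyanine 5 were left missing and not imputed. A probe passed where both channels exceeded 10 after background subtraction on 80% of usable arrays (27304 probes), and the brightest passing probe stood for a gene. Replicate numbers are accession order only. Tests were limma fits over 20957 genes with Benjamini-Hochberg adjustment at 0.05; those of diet in late tumors used 6 group means, and correlations used 100000 permutations, two-sided. The number of arrays limits the precision. The fits were tested on simulated data. Of the gene probes 27234 were named by accession, 3576 by symbol, 565 by an older symbol and 8054 by the file's own name. Probe positions are those of the files (mm9), and their exon or UTR was not analysed here. RefSeq promoters matched 9 of 10 members. The named genes were the members, list genes past the limit or with 1 of the 2 largest early minus late differences of their list, and the 3 genes most alike to each member, 1 of which is not reported here. The members and lists were chosen with earlier results of these data known. Alternatives covered background correction, normalization, filters, missing values, probes, weights, blocks and leaving out each array.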

Additional observations from a re-analysis of the deposited data

Results flagged for a closer look

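Of the values, 3 stood apart from the rest of their group by Dixon's criterion, among 28 groups of 4 to 6 tumors checked, where chance gives about 1 in 20. All were in HFD late tumors (n = 6). Pon3 was -1.12 in replicate 6, against -0.32 in the nearest tumor. Cyp3a13 was -1.20 in replicate 4, against -3.77 in the nearest tumor, and this was the tumor with the highest squamous score. Nr1h4 was -2.27 in replicate 1, against -3.40 in the nearest tumor.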

How the results depend on the processing

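No paired analysis was possible because the labels give no replicate numbers, and those used here name samples in accession order. Of the 10 members 7 were lower in early tumors past the limit, beside 2355 of 20957 genes. Leaving out each array gave 6 or 7. The count was 4 with the scanner log ratio (1636 genes lower), median centring (969) and the tumor channel alone (1082). It was also 4 with slide as random block (1205) and within session 1 (896), and 2 within session 2 (1389). Fewer arrays entered there, and the cause was otherwise not tested. The members were chosen on this contrast, so nothing is read from these counts. Called genes for early against late were 3853, with 7126 at an unadjusted p, 6706 with array weights, 2387 with dimmed rows kept, 1932 with slide as random block, 1531 within session 1, 2467 within session 2, and 2165 to 4694 leaving out each array (2165 without HFD early replicate 2). Direction turned for Cyp3a13 with normexp on all spots (-0.38) and within session 1 (-0.48), and for Pon2 with median centring (0.21) and within session 1 (0.31). Members past an unadjusted p were 2 for the diet of puberty, 1 for that of adulthood and 1 for onset by diet; at the adjusted limit there were 0, and 1 for onset by diet with array weights. Genes called were 0 in each diet comparison. They were 1071, 1995, 1305 and 1731 at an unadjusted p for HFD against LFD, puberty, adulthood and onset by diet. For HFD against LFD leaving out each array gave 0 to 1 (1 without HFD late replicate 1). For puberty array weights gave 99 and leaving out each array 0 to 21 (21 without HFD-LFD late replicate 1, 3 without HFD late replicate 1, 1 without HFD late replicates 4 or 6). For adulthood 29 were called without arrays with dimmed rows, 1 with session as block, and 0 to 1 leaving out each array (1 without HFD late replicate 4). For onset by diet the counts were 4 with the scanner log ratio, 2 with imputation, 1 with dimmed rows kept, 396 with array weights, 1 with a variance trend, and 0 to 17 leaving out each array (17, 5 and 3 without HFD early replicates 3, 1 and 2, 8 without HFD-LFD late replicate 1, 2 without HFD-LFD early replicate 3 or HFD late replicate 6). Pairs of members past the limit were 0, and 1 (Pon2 with Nr1h4, r = 0.74) without the 2 farthest tumors. Relations of marker scores past the limit by Pearson's r were 3 (5 by rho), 9 without the 2 farthest tumors and 1 among late tumors with a luminal score above 0, a setting chosen after seeing the data, where Cyp3a13 with the squamous score reversed to -0.10. Dim probes limit Nr0b2 and Cyp3a13, well above background in 17 and 20 of 24 tumors. Values under other settings also moved by over 1.5 times for Pon1 (-0.23 with the tumor channel alone, -1.49 with normexp on all spots), Nr1h4 (-0.43 with the tumor channel alone), Sec14l2 (-0.12 with dimmed rows kept) and Nr0b2 (-0.08 without background correction, -0.32 with normexp on all spots).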
